A study of Homo sapiens with 12 samples.

Results

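MV3 cells, an established human melanoma line, were compared after exposure to extracellular vesicles (EVs) of macrophages that were not in the M1 state and after PBS. The vesicle side pooled the 3 libraries labelled M0 EV with the 3 labelled M2 EV, and the other side was the 3 libraries labelled Ctrl, so the comparison used 9 of the 12 libraries of the series. Libraries were assigned to sides by their labels, while the comparison itself was chosen with earlier results of these data known. In all groups, cells in 12-well plates were first moved to medium with 1% serum depleted of vesicles for 3 h. PBS (Ctrl) or 1e10 particles per well was then added, and RNA was taken after 24 h. The particles were collected by ultracentrifugation from THP-1 macrophages, cells of a human monocytic leukaemia line, after 48 h of polarization to M0, M1 or M2. The polarizing agents are not named in the labels. Replicates are numbered in the labels with no word on separate cultures or vesicle preparations, so a p-value here measures only how far these samples spread, which may be technical.

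Extracellular vesicles are small particles enclosed by a membrane that cells release with part of their protein, lipid and RNA, and that other cells can bind or take up. M0 macrophages are unstimulated, M1 macrophages are the inflammatory state and M2 macrophages the state associated with tissue repair. Pooling M0 and M2 vesicles asks what MV3 cells do when given macrophage vesicles outside the inflammatory state.

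RNA levels were measured by sequencing of poly(A) RNA, with 9694683 to 14379483 counts over all genes in a library. Levels are scaled counts-per-million values (CPM). Fold changes are given on the log2 scale, each with its standard error (SE) from the edgeR model. A gene was called at a Benjamini-Hochberg adjusted p below 0.05. Vesicle libraries lay at 1.29 to 5.38 on the first principal component of the 9 libraries, which held 15.1% of the variance, and Ctrl replicates 1, 2 and 3 lay at -14.78, -0.22 and -5.20. M0 EV replicate 1 differed from M0 EV replicates 2 and 3 by chi-square values of 2.03 and 2.34 per degree of freedom, where counting noise alone gives about 1, while replicates 2 and 3 differed by 1.04. Of 27 melanocytic genes, 10 passed the low-count filter and 5 had no count in the 9 libraries. The 10 that passed summed to 419.6 to 444.5 CPM in Ctrl. MC1R, the receptor for melanocyte-stimulating hormone, stood at 66.58 to 79.0 CPM in the 9 libraries, GPNMB, a melanosome glycoprotein, at 30.41 to 38.29 CPM and RAB27A, which moves melanosomes, at 20.67 to 24.97 CPM. Other defining genes were at or near 0: TYR and DCT, enzymes of pigment synthesis, had 0 counts, SOX10, a lineage factor, had 2 counts in M2 EV and 0 elsewhere, and MITF, the master regulator of melanocytes, had 25, 25 and 26 counts over the 3 libraries of Ctrl, M0 EV and M2 EV. AXL, a receptor kinase of undifferentiated melanoma, stood at 1298 to 1324 CPM in Ctrl and 1288 to 1338 CPM with vesicles.

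Vesicles of M0 and M2 macrophages changed 5 of 13113 tested genes (0.0381%) when pooled against PBS. The chemokine gene CXCL5 rose (0.00763% of genes were called higher), and UNC5B, TNFRSF21, PKNOX2 and SECTM1 fell (0.0305% were called lower). None of the 5 changed as much as 2-fold. In each of them all 6 vesicle libraries lay outside the range of the 3 Ctrl libraries, a separation that 455 of the 13113 genes showed (3.47%), 215 with vesicles above Ctrl (1.64%) and 240 below (1.83%). The number of calls depended on single libraries: it was 0 without Ctrl replicate 1 or Ctrl replicate 3, 25 without Ctrl replicate 2 (4 higher, 21 lower), 86 without M0 EV replicate 1 (54 higher, 32 lower), 1 without M0 EV replicate 2 and 3 without M2 EV replicate 2. All 5 genes kept their direction in each of 21 alternative analyses.

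**Figure D1:**
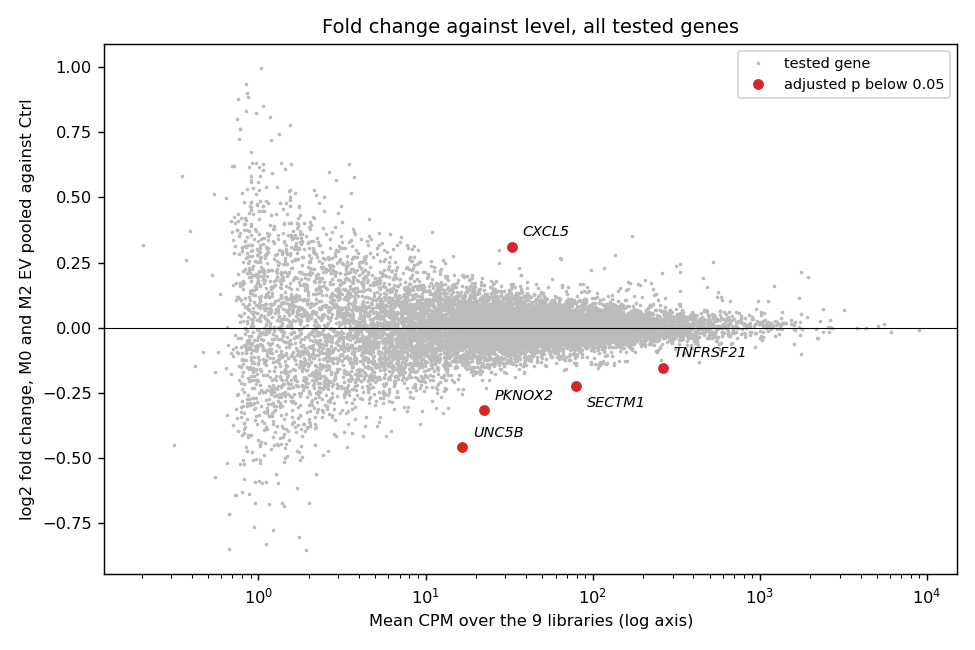
Fold change of every tested gene between M0 and M2 EV pooled and Ctrl (log2, vertical axis) against its mean level over the 9 libraries (CPM, log axis). The 5 called genes are red and named, with CXCL5 the only one above 0.

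UNC5B showed the largest fold change among the 5 called genes. It encodes a receptor for netrins, secreted cues that steer axons and growing vessels, and lies on chromosome 10 at 71212570 to 71302864 of GRCh38.p14. UNC5B stood at 21.59, 18.80 and 20.43 CPM in the 3 Ctrl libraries. It stood at 13.11, 13.52 and 16.74 CPM with M0 vesicles and at 15.33, 14.58 and 15.46 CPM with M2 vesicles. The highest vesicle library thus lay below the lowest Ctrl library. UNC5B fell by 27.2% (log2 fold change -0.46 ± 0.073 SE, adjusted p = 0.00342, lower in 6 of 6 vesicle libraries). It was called with M0 vesicles alone (-0.49 ± 0.086, adjusted p = 0.0199) and with M2 vesicles alone (-0.43 ± 0.083, adjusted p = 0.0354), 2 comparisons that share the Ctrl libraries. With M1 vesicles UNC5B was lower still, at 6.61 to 7.65 CPM, a log2 difference of -1.06 from the pooled vesicles (adjusted p = 2.715e-11). Over the alternatives its adjusted p ran from 1.022e-06 to 0.18, and the call was lost without Ctrl replicate 1 (0.18) and without Ctrl replicate 3 (0.0618).

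Other genes of the netrin and Slit guidance pathways were examined in a list of 37 guidance and angiogenesis receptors and ligands, 28 of them tested. UNC5B was the 1 member called, and the median log2 fold change of the 28 was -0.01, beside 0.00 over all tested genes. SLIT2, a secreted guidance cue, stood at 76.65 to 77.77 CPM in Ctrl and 82.22 to 91.69 CPM with vesicles (log2 fold change 0.17 ± 0.041 SE, adjusted p = 0.117). NTN4, a netrin of basement membranes, stood at 164.4 to 168.3 CPM in Ctrl and 150.0 to 158.9 CPM with vesicles (-0.09 ± 0.032, adjusted p = 0.473). Groups did not overlap for either gene, as for 3.47% of all tested genes, and neither passed the test.

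CXCL5 encodes a CXC chemokine that attracts neutrophils through the receptor CXCR2, and lies on chromosome 4 at 73995642 to 73998677. It stood at 28.79, 26.30 and 29.67 CPM in Ctrl, at 34.68, 34.19 and 31.89 CPM with M0 vesicles and at 37.59, 35.68 and 37.09 CPM with M2 vesicles. Every vesicle library was above every Ctrl library. CXCL5 rose by 24.0% (log2 fold change 0.31 ± 0.057 SE, adjusted p = 0.0206, higher in 6 of 6 vesicle libraries). With M2 vesicles alone the change was 0.37 ± 0.063 (adjusted p = 0.0101) and with M0 vesicles alone 0.25 ± 0.066 (adjusted p = 0.28). The difference between the vesicle types was 0.13, with a 95% interval of 0.01 to 0.25, and did not pass the test (unadjusted p = 0.0393, adjusted p = 0.9998). M1 vesicles gave 331.5 to 349.8 CPM, 9.75 times the pooled level (adjusted p = 6.947e-42). Leaving out a library ended the pooled call for M0 EV replicate 2 (adjusted p = 0.0553), Ctrl replicate 3 (0.0618), Ctrl replicate 2 (0.0781) and Ctrl replicate 1 (0.18), in a range over the alternatives of 0.0002073 to 0.18.

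The nearby chemokine genes CXCL1 and CXCL8 encode ligands that share the receptor CXCR2 with CXCL5, and are known targets of NF-kB, a transcription factor of inflammatory signalling. CXCL8 stood at 1.70, 2.06 and 2.13 CPM in Ctrl and between 2.48 and 3.22 CPM with vesicles (median 3.12). CXCL1 stood at 13.19, 11.30 and 13.50 CPM in Ctrl and between 14.57 and 16.60 CPM with vesicles (median 15.34). Both were above Ctrl in 6 of 6 vesicle libraries, as were 215 of all 13113 tested genes (1.64%). The log2 fold changes of CXCL8 and CXCL1 were 0.60 ± 0.19 (95% interval 0.22 to 0.97) and 0.28 ± 0.088 (0.10 to 0.45), and neither passed the test (adjusted p = 0.355 and 0.375). CXCL8 rested on 61 counts over the 3 Ctrl libraries, 95 over M0 EV and 119 over M2 EV. Reads shared by CXCL1 with its close copies CXCL2 and CXCL3 cannot be told apart in these counts.

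The 250 bases before the start of these 3 chemokine genes are shown because they carry the same 9-letter NF-kB motif, GGAATTTCC, in capitals, at 90 bases before the start in CXCL5, 78 in CXCL1 and 91 in CXCL8. The capitals TGACTCA in CXCL8 mark a match to the AP-1 motif TGANTCA, which the other 2 lack. Sequences are from RefSeq on GRCh38.p14, written 5′ to 3′ along each gene: CXCL5 on the minus strand at chr4:73998678-73998927, CXCL1 on the plus strand at chr4:73869143-73869392 and CXCL8 on the plus strand at chr4:73740319-73740568.
CXCL5: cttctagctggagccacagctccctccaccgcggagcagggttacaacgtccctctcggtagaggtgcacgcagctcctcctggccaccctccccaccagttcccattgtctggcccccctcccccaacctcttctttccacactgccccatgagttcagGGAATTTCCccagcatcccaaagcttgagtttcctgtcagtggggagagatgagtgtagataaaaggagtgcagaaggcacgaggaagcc
CXCL1: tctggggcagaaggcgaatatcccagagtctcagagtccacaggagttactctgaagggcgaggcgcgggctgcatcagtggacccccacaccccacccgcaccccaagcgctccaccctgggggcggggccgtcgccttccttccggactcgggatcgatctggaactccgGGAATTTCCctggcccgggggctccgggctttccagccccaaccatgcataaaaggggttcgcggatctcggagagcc
CXCL8: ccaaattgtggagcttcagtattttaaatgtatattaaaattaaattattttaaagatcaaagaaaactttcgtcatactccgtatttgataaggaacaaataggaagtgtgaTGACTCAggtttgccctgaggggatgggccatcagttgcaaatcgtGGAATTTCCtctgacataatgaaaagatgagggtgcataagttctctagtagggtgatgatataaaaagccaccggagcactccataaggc
Searched on both strands, GGAATTTCC occurred in 145 of 35116 RefSeq upstream windows of this length (0.41%) and TGANTCA in 2308 (6.57%). A match describes the letters of the window and not binding.

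Of the 22 genes of the chemokine list, 7 were tested, CXCL5 was called and none fell, with a median log2 fold change of 0.13 over the 7. CXCL10, an interferon-induced chemokine, had 0 counts in every library, and CCL2, which attracts monocytes, had 2 counts in Ctrl, 1 in M0 EV and 0 in M2 EV. Of these 7 genes, 5 were called higher with M1 vesicles than with the pooled vesicles, beside 15.2% of all tested genes. CXCL2 and CXCL3, both among the 5, had 17 and 14 counts over the Ctrl libraries, against 187 and 157 over M1 EV. They passed the low-count filter on their M1 EV counts, so their higher call follows from that selection.

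**Figure D2:**
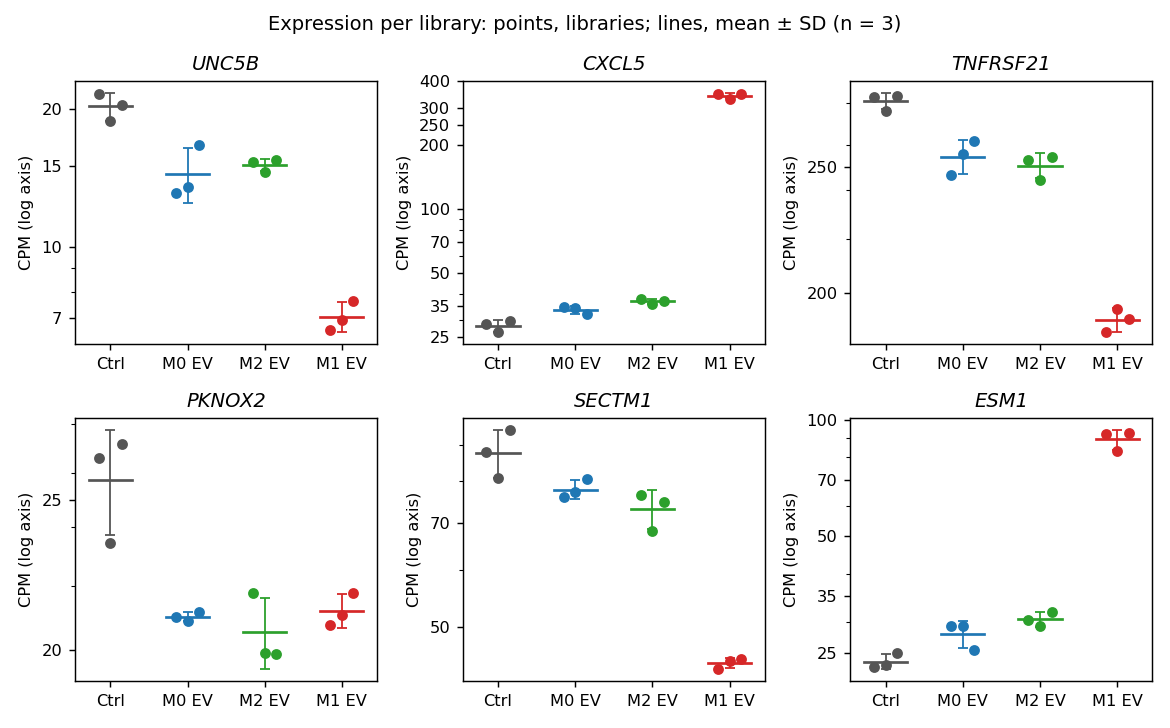
CPM (log axis) in each library for the 5 called genes and ESM1, with the mean and SD of each group (n = 3). M0 EV and M2 EV lie on the same side of Ctrl in all 6 panels, and M1 EV lies farther out in all but PKNOX2.

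TNFRSF21 encodes death receptor 6, a receptor of the tumour necrosis factor (TNF) family with a death domain, and lies on chromosome 6 at 47231532 to 47309905. It stood at 283.5, 276.5 and 283.6 CPM in Ctrl, at 246.7, 255.8 and 261.9 CPM with M0 vesicles and at 253.1, 244.3 and 254.8 CPM with M2 vesicles. The Ctrl libraries lay close together and above all 6 vesicle libraries. TNFRSF21 fell by 10.2% (log2 fold change -0.15 ± 0.029 SE, adjusted p = 0.0238), with -0.14 for M0 vesicles (adjusted p = 0.164) and -0.17 for M2 vesicles (adjusted p = 0.0453). M1 vesicles gave 186.5 to 194.5 CPM, a further log2 difference of -0.41 (adjusted p = 1.365e-13). Its adjusted p ran from 0.0007671 to 0.343 over the alternatives, and the call ended on leaving out M0 EV replicate 2 (0.0553), M2 EV replicate 2 (0.113), Ctrl replicate 1 (0.202) or Ctrl replicate 3 (0.343). No other of the 23 tested genes among 29 TNF receptors and adaptors was called, and their median was -0.03.

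The window before TNFRSF21 is shown as that of a gene that fell, at chr6:47309906-47310155 on the minus strand, from the same RefSeq source. Neither motif was found in its letters, so none are in capitals.
TNFRSF21: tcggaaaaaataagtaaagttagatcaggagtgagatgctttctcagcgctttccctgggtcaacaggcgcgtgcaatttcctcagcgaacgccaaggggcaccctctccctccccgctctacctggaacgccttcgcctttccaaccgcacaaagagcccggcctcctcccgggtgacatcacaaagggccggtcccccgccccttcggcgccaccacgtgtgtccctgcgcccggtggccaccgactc

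PKNOX2 encodes a homeodomain transcription factor of the TALE class that pairs with PBX proteins, and lies on chromosome 11 at 125164751 to 125433389. It stood at 26.59, 23.43 and 27.18 CPM in Ctrl, at 21.00, 20.87 and 21.17 CPM with M0 vesicles and at 21.78, 19.92 and 19.88 CPM with M2 vesicles. The 6 vesicle libraries were closer to each other than the 3 Ctrl libraries were. PKNOX2 fell by 19.7% (log2 fold change -0.32 ± 0.061 SE, adjusted p = 0.0238), with -0.30 for M0 vesicles (adjusted p = 0.164) and -0.34 for M2 vesicles (adjusted p = 0.0453). M1 vesicles gave 20.75 to 21.77 CPM, and the log2 difference from the pooled vesicles was 0.03 (95% interval -0.10 to 0.16, adjusted p = 0.755). PKNOX2 was thus the 1 of the 5 genes for which M1 and pooled vesicles did not differ beyond the test. DESeq2 did not call PKNOX2 (adjusted p = 0.264). In edgeR the call ended on leaving out M0 EV replicate 2 (0.0553), M2 EV replicate 3 (0.0609), M2 EV replicate 2 (0.103), Ctrl replicate 1 (0.228) or Ctrl replicate 3 (0.592), in a range over all alternatives of 0.0007671 to 0.592.

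SECTM1 encodes a secreted and transmembrane protein that binds CD7 on T cells and natural killer cells, and lies on chromosome 17 at 82321024 to 82333959. It stood at 87.76, 80.76 and 94.34 CPM in Ctrl, at 75.95, 77.12 and 80.44 CPM with M0 vesicles and at 76.56, 68.03 and 74.86 CPM with M2 vesicles. The gap between the groups was narrow, with M0 EV replicate 3 just under Ctrl replicate 2. SECTM1 fell by 14.3% (log2 fold change -0.22 ± 0.043 SE, adjusted p = 0.0238), with -0.17 for M0 vesicles (adjusted p = 0.399) and -0.27 for M2 vesicles (adjusted p = 0.024). M1 vesicles gave 43.68 to 45.10 CPM, a further log2 difference of -0.76 (adjusted p = 2.538e-15). DESeq2 did not call SECTM1 (adjusted p = 0.169). In edgeR the call ended on leaving out M0 EV replicate 2 (0.0553), M2 EV replicate 2 (0.152), Ctrl replicate 1 (0.202) or Ctrl replicate 3 (0.687), in a range over all alternatives of 0.0001303 to 0.687.

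M0 and M2 vesicles were compared directly to ask whether the types being pooled differed. No gene passed (0.0%) with edgeR, DESeq2 or limma-voom, and 447 of 13113 (3.41%) had an unadjusted p below 0.05 with edgeR. The difference for the 5 called genes lay between -0.10 for SECTM1 (95% interval -0.20 to 0.01) and 0.13 for CXCL5. Against the same Ctrl libraries, M0 vesicles gave 2 calls (0.0153%), UNC5B lower and MT-RNR1 higher, and M2 vesicles gave 6 (0.0458%), the 5 pooled calls and ESM1. Unadjusted p was below 0.05 for 665 genes (5.07%) with M0 vesicles and 814 (6.21%) with M2 vesicles. Without M0 EV replicate 1, 36 genes were called lower with M2 than with M0 vesicles. Of the 35 with a known length, 26 had transcripts over 10000 bases, beside 386 of all 11775 tested genes with a known length. Leaving out that library also took the M0 calls to 87. The M0 calls numbered 1 without M0 EV replicate 3 or Ctrl replicate 2, and 0 without M0 EV replicate 2 or Ctrl replicate 3. The M2 calls were 24 without Ctrl replicate 2, 1 without Ctrl replicate 3, M2 EV replicate 1 or M2 EV replicate 2, and 0 without Ctrl replicate 1 or M2 EV replicate 3.

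**Figure D3:**
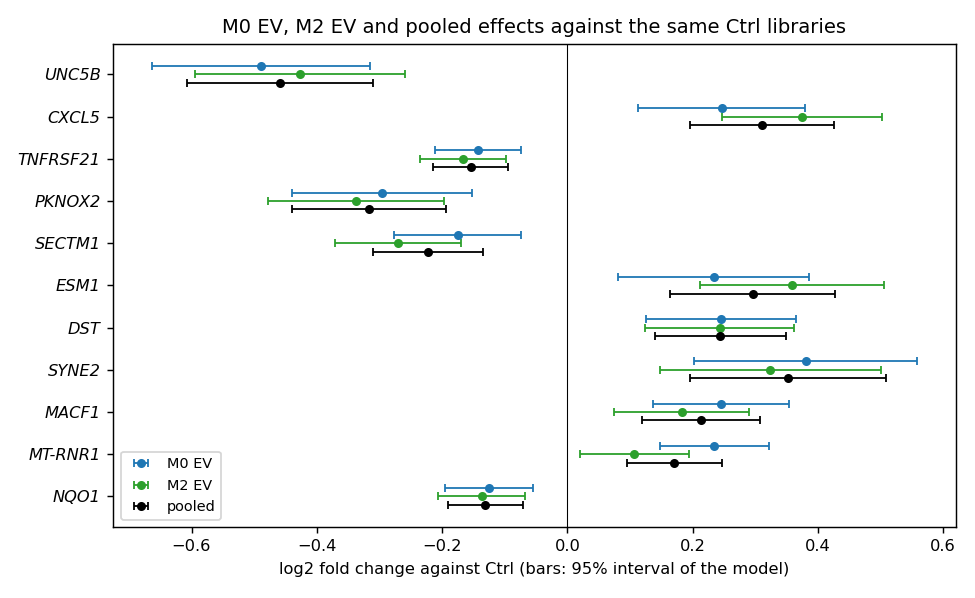
Log2 fold changes against Ctrl with M0 vesicles, M2 vesicles and both pooled, with 95% intervals of the model. Shown are the 5 called genes, the 5 next in order of p, and NQO1, the next in that order with a negative fold change. All 3 estimates of a gene lie on the same side of 0, and they share the Ctrl libraries.

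The genes next in order of p, which did not pass the test, began with DST, SYNE2 and MACF1. DST and MACF1 encode spectraplakins, which link actin to microtubules, and SYNE2 encodes nesprin-2 of the nuclear envelope. DST stood at 299.1, 317.9 and 273.2 CPM in Ctrl and between 291.9 and 388.9 CPM with vesicles (log2 fold change 0.24 ± 0.052 SE, adjusted p = 0.069). SYNE2 and MACF1 had log2 fold changes of 0.35 ± 0.077 and 0.21 ± 0.047 (adjusted p = 0.0705 for both). In all 3 genes 5 of 6 vesicle libraries were above Ctrl, and M0 EV replicate 1 was within its range.

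These genes have some of the longest transcripts tested, and levels moved with transcript length by library. Of 98 genes with transcripts over 14000 bases, 35 had an unadjusted p below 0.05 and were higher with vesicles, and 0 were lower. Their median log2 level over the Ctrl mean was 0.03, 0.05 and -0.07 in the 3 Ctrl libraries, -0.05, 0.15 and 0.21 with M0 vesicles and 0.05, 0.09 and 0.05 with M2 vesicles. The M0 EV libraries spread more widely than the Ctrl libraries did, with replicate 1 in the range of Ctrl and replicates 2 and 3 above all others. Among 4021 genes of 3000 to 6000 bases, 102 had such a p and were higher and 161 lower, with a pooled median of 0.00. What moved long transcripts was not tested. The 5 called genes have transcripts of 2235 to 6841 bases. All 5 were among the 77 genes called with the length and GC trends of each library removed, a fit chosen after the data were seen.

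**Figure D4:**
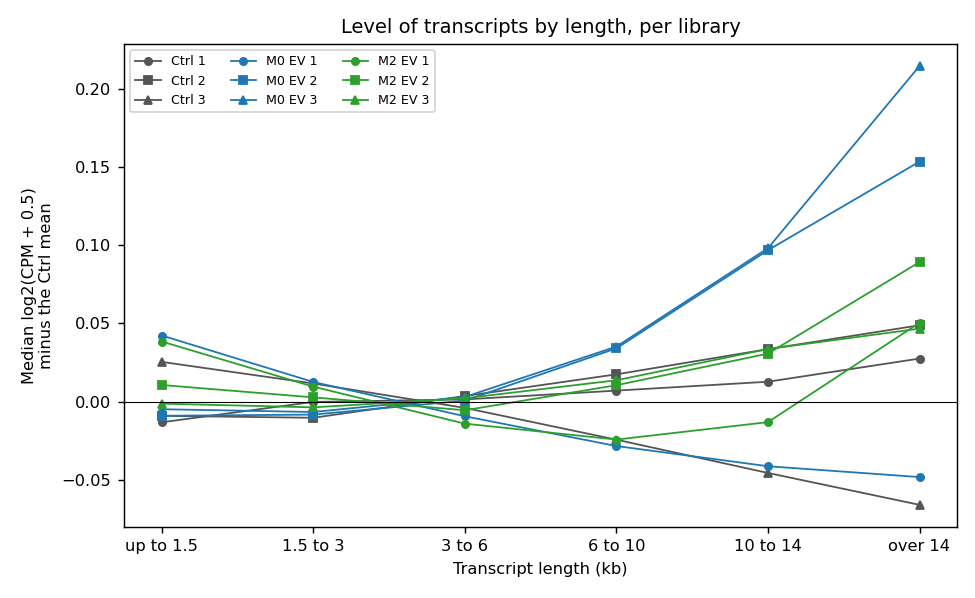
Median log2(CPM + 0.5) of genes over the Ctrl mean in 6 bins of transcript length (kb), 1 line per library for Ctrl, M0 EV and M2 EV. M0 EV replicates 2 and 3 reach 0.15 and 0.21 above 14 kb, while M0 EV replicate 1 lies at -0.05 beside Ctrl replicate 3 at -0.07.

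ESM1 encodes endocan, a secreted proteoglycan induced in vessel lining cells by inflammatory and growth factor signals. It stood at 22.99, 23.22 and 24.87 CPM in Ctrl, at 29.22, 29.22 and 25.34 CPM with M0 vesicles and at 30.27, 29.29 and 31.83 CPM with M2 vesicles. The groups did not overlap, as in 3.47% of all tested genes, although M0 EV replicate 3 was close to Ctrl replicate 3. The pooled log2 fold change was 0.30 ± 0.065 SE (adjusted p = 0.0705), and ESM1 was called with M2 vesicles alone (0.36 ± 0.072, adjusted p = 0.0453). M1 vesicles gave a mean of 89.09 CPM, a log2 difference of 1.61 from the pooled vesicles (adjusted p = 1.184e-26).

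MT-RNR1 and MT-RNR2, the ribosomal RNAs of mitochondria, were the 2 mitochondrially encoded genes named in the table. MT-RNR1 stood at 212.2, 196.4 and 206.0 CPM in Ctrl, at 228.4, 240.6 and 254.8 CPM with M0 vesicles and at 232.6, 204.8 and 226.2 CPM with M2 vesicles. All but M2 EV replicate 2 were above Ctrl. The pooled log2 fold change was 0.17 ± 0.037 SE (adjusted p = 0.0705), and MT-RNR1 was called with M0 vesicles alone (0.23 ± 0.043, adjusted p = 0.0199). The 2 genes together held 0.123% ± 0.0051 of counts with vesicles (SD, n = 6) and 0.114% ± 0.0037 in Ctrl (SD, n = 3; two-sided exact permutation test, p = 0.0476, smallest possible 0.0238). That p was 0.0714 to 0.143 when any 1 library other than M2 EV replicate 2 was left out. Leaving out a library also raises the smallest possible p, and without a Ctrl library no p below 0.05 was possible. Nuclear copies of these genes may share their reads.

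The NF-kB response list holds targets and feedback inhibitors of that pathway. None of its 29 tested genes was called with the pooled vesicles, and their median log2 fold change was 0.05. Fold changes were positive in 21 and negative in 8, beside 6733 and 6380 of 13113 over all genes. In 2 of the 29 all 6 vesicle libraries lay above Ctrl and in 2 below, beside 215 and 240 of 13113. IRF1, also in the interferon-gamma list, was below Ctrl in 6 of 6 (-0.13 ± 0.041 SE, adjusted p = 0.307). TNFAIP3, an enzyme that shuts off NF-kB signalling, stood at 2.80 to 3.29 CPM in Ctrl and 3.43 to 4.72 CPM with vesicles (0.38 ± 0.16 SE, adjusted p = 0.71). NFKBIA, the inhibitor that holds NF-kB in the cytoplasm, stood at 23.22 to 25.99 CPM in Ctrl and 25.51 to 29.43 CPM with vesicles (0.18 ± 0.061, adjusted p = 0.473). ICAM1, a receptor for leukocyte adhesion, stood at 10.50 to 10.69 CPM in Ctrl and 10.91 to 13.55 CPM with vesicles (0.17 ± 0.086, adjusted p = 0.864). TNFAIP3 and ICAM1 were above Ctrl in 6 of 6 vesicle libraries and NFKBIA in 5 of 6. The upper 95% limits of the pooled fold change were 0.70, 0.30 and 0.34 for the 3 genes, while M1 vesicles exceeded the pooled vesicles by 1.96, 1.16 and 2.68 (adjusted p = 8.318e-19, 1.042e-21 and 5.233e-33). Of the 29 genes, 25 were called higher with M1 than with pooled vesicles, beside 15.2% of all genes, and 0 were lower.

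Cytokine genes gave no pooled call among 27 tested, with a median of 0.02. IL6, a cytokine of the acute phase, stood at 3.00 to 4.11 CPM in Ctrl and 3.01 to 4.30 CPM with vesicles (log2 fold change 0.10, 95% interval -0.21 to 0.41). IL1B, a fever cytokine, stood at 4.598 to 5.651 CPM in Ctrl and 4.26 to 5.37 CPM with vesicles (-0.08, interval -0.36 to 0.20). The groups overlapped for both. M1 vesicles exceeded the pooled vesicles by 1.95 for IL6 (adjusted p = 2.688e-18) and 3.16 for IL1B (adjusted p = 8.415e-30), and 21 of the 27 genes were called higher and 2 lower in that comparison, beside 15.2% and 14.8% of all tested genes.

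Interferon lists gave no pooled call. The medians were -0.03 over 31 tested genes of the type I interferon response and 0.00 over 32 genes of the interferon-gamma response and class I antigen presentation. IRF1, a transcription factor induced by interferon gamma, stood at 65.37, 63.08 and 64.49 CPM in Ctrl and between 57.22 and 59.91 CPM with vesicles (log2 fold change -0.13 ± 0.041 SE, adjusted p = 0.307). IFIT2, an antiviral protein induced by interferons, stood at 13.29 to 15.63 CPM in Ctrl and 10.74 to 13.86 CPM with vesicles (-0.24 ± 0.083, adjusted p = 0.473). IRF1 was below Ctrl in 6 of 6 vesicle libraries, beside 1.83% of all tested genes, and IFIT2 in 5 of 6. Neither gene passed the test.

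**Figure D5:**
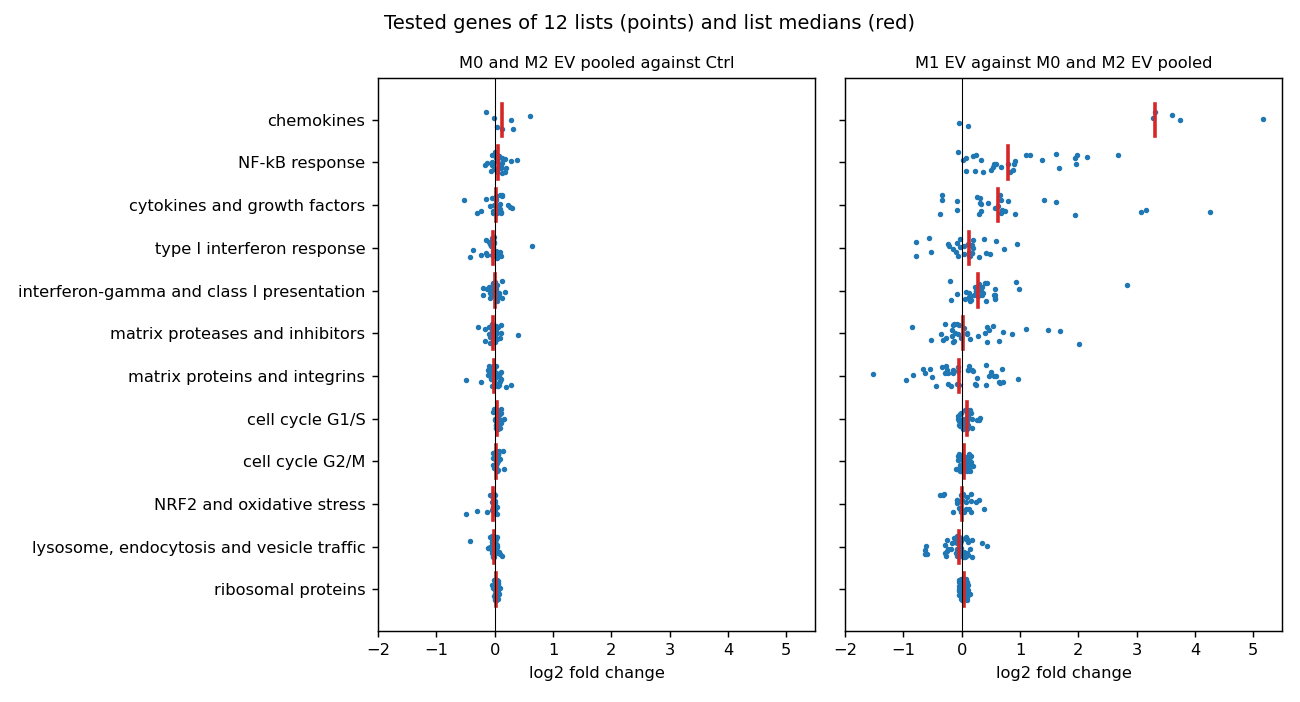
Log2 fold change of the tested genes of 12 lists (points) with each list's median (red), for M0 and M2 EV pooled against Ctrl (left) and M1 EV against the pooled vesicles (right) on the same axis. List medians on the left lie between -0.03 and 0.13, and on the right the chemokine median is 3.31. CXCL2 and CXCL3 passed the low-count filter on M1 EV counts, so their high place on the right follows from that selection.

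Genes that build and cut the extracellular matrix gave no pooled call among 34 tested proteases and inhibitors and 40 matrix proteins and integrins, with medians of -0.03 and -0.01. SPARC, a collagen-binding matrix protein, stood at 1834, 1810 and 1914 CPM in Ctrl and between 1688 and 1777 CPM with vesicles (log2 fold change -0.10 ± 0.025 SE, adjusted p = 0.117). MMP2, a gelatinase, and TIMP2, its inhibitor, had log2 fold changes of -0.10 ± 0.030 and -0.08 ± 0.026 (adjusted p = 0.334 for both). SPARC and TIMP2 were below Ctrl in 6 of 6 vesicle libraries, as were 1.83% of all tested genes. Other genes of the 2 lists rose without passing the test. CTSL and PLAUR (0.10 ± 0.034 and 0.10 ± 0.039, adjusted p = 0.507 and 0.639) were above Ctrl in 6 of 6, and COL6A2 (0.10 ± 0.027, adjusted p = 0.1265) in 5 of 6. Fold changes were positive in 15 and negative in 19 of the 34 genes, and positive in 15 and negative in 25 of the 40. PLAU, the urokinase that starts plasmin formation, stood at 357.3 to 381.2 CPM in Ctrl and 371.9 to 392.9 CPM with vesicles (0.03, 95% interval -0.02 to 0.09). MMP1, a collagenase, was low in all 9 libraries, at 1.07 to 2.51 CPM. Of the 34 proteases and inhibitors, 14 were called higher and 11 lower with M1 than with pooled vesicles, beside 15.2% and 14.8% of all tested genes.

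Cell cycle genes gave no pooled call among 37 of the G1/S list and 36 of the G2/M list. Their medians were 0.04 and 0.03, and 33 of 37 and 31 of 36 had a positive log2 fold change, beside 6733 of 13113 over all genes. Both medians stayed positive under the other 2 scalings tried. MKI67, a proliferation marker with a transcript of 12678 bases, stood at 479.4, 463.4 and 409.2 CPM in Ctrl and between 442.0 and 545.3 CPM with vesicles (0.16 ± 0.045 SE, adjusted p = 0.215). TPX2, a spindle assembly factor, stood at 608.7 to 617.6 CPM in Ctrl and 629.6 to 646.9 CPM with vesicles (0.05 ± 0.025, adjusted p = 0.78). TPX2 was above Ctrl in 6 of 6 vesicle libraries, beside 1.64% of all tested genes, and MKI67 in 5 of 6. The 75 tested ribosomal protein genes had a median of 0.02, with 66 positive, beside the same 6733 of 13113, and none called.

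Stress response genes gave no pooled call. The median was -0.02 over 27 genes of the NRF2 list, 20 of them negative, beside 6380 of 13113 over all genes. NQO1, a quinone reductase and target of NRF2, stood at 450.8, 459.3 and 463.3 CPM in Ctrl and between 403.1 and 433.7 CPM with vesicles (-0.13 ± 0.030 SE, adjusted p = 0.0879). It was below Ctrl in 6 of 6 vesicle libraries, as were 1.83% of all tested genes. Among 37 hypoxia and glycolysis genes the median was 0.03. BNIP3, a mitophagy receptor induced by hypoxia, stood at 88.12 to 90.62 CPM in Ctrl and 96.77 to 100.7 CPM with vesicles (0.14 ± 0.036, adjusted p = 0.117). ADM, a vasodilator peptide also induced by hypoxia, stood at 107.9 to 114.0 CPM in Ctrl and 95.31 to 105.9 CPM with vesicles (-0.14 ± 0.037, adjusted p = 0.124). These hypoxia genes thus lay on opposite sides of Ctrl without overlap, and neither passed the test. Of all tested genes, 3.47% did not overlap. TP53INP1, a p53 target, stood at 14.04 to 15.82 CPM in Ctrl and 10.53 to 12.94 CPM with vesicles (-0.33 ± 0.084, adjusted p = 0.117). Medians were 0.01 over 38 integrated stress response genes, 0.03 over 23 chaperones and -0.01 over 25 p53 targets.

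Genes of lysosomes, endocytosis and vesicle traffic, the route by which cells take up vesicles, gave no pooled call among 53 tested. The median was -0.02, with 38 of 53 negative, beside 6380 of 13113 over all genes. CD63, a tetraspanin of late endosomes and exosomes, stood at 274.9, 264.7 and 269.2 CPM in Ctrl and between 238.8 and 257.7 CPM with vesicles (-0.12 ± 0.032 SE, adjusted p = 0.117). CTSA, a lysosomal protease, stood at 249.0 to 256.4 CPM in Ctrl and 225.3 to 245.7 CPM with vesicles (-0.09 ± 0.031, adjusted p = 0.456). Both were below Ctrl in 6 of 6 vesicle libraries, as were 1.83% of all tested genes. CD63 was lower again with M1 vesicles (mean 208.6 CPM, log2 difference -0.25 from the pooled vesicles, adjusted p = 1.612e-07). Medians were -0.01 over 34 cholesterol genes, 0.01 over 24 YAP and TEAD targets, 0.01 over 21 TGF-beta targets and -0.02 over 29 genes of ERK output and AP-1, with no call in any. EGR1, an immediate early gene of ERK signalling, stood at 6.93 to 7.91 CPM in Ctrl and 4.96 to 6.76 CPM with vesicles (-0.40 ± 0.11, adjusted p = 0.181).

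The cells' state was measured with lists of 29 tested genes of undifferentiated melanoma and 10 of melanocytic differentiation, whose medians were 0.00 and 0.02 with no call. WNT5A, a ligand of invasive melanoma, stood at 79.11 to 87.36 CPM in Ctrl and 71.48 to 80.66 CPM with vesicles (-0.14 ± 0.041 SE, adjusted p = 0.226). For AXL the pooled log2 fold change was 0.00, with a 95% interval of -0.05 to 0.05. In 18 tested complement and coagulation genes the median was -0.01 with no call.

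Macrophage RNA carried over with the vesicles was looked for with 48 macrophage markers. Of these, 5 were tested, none was called, and 25 had no count in any of the 9 libraries, CD163 and TYROBP among them. The sum over the 5 tested markers leaves out those below the low-count filter. It was 69.07 to 75.52 CPM in Ctrl, 71.64 to 75.53 CPM with M0 vesicles and 74.69 to 77.14 CPM with M2 vesicles. Most of that was CD68, a lysosomal glycoprotein that cells outside the macrophage lineage also express, at 54.08 to 60.93 CPM in Ctrl and 57.06 to 61.23 CPM with vesicles. PTPRC, the common leukocyte antigen, had 0 counts in all 9 libraries.

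The intervals of the model describe, gene by gene, the spread of these samples, which may be technical. They are not joint limits over all genes. The median absolute log2 fold change was 0.04 and the median SE 0.06. For 9243 of 13113 genes (70.5%) the 95% interval of the pooled log2 fold change lay within 0.25 of 0, and for 12967 (98.9%) within 1. Among 9662 genes with a mean of at least 10 CPM, 9022 (93.4%) lay within 0.25. Unadjusted p was below 0.05 for 811 genes (6.18%). By comparison, M1 vesicles differed from the pooled vesicles at 3939 genes (30.0%), 1998 higher (15.2%) and 1941 lower (14.8%), with an unadjusted p below 0.05 at 39.0%.

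The gamma protocadherin genes, adhesion molecules that splice different first exons to shared last exons, made up 22 of the 75 genes with an unadjusted p below 0.001. Their log2 fold changes lay between -0.14 and -0.13, and the lowest adjusted p was 0.117. Their counts within a library were close to equal, for example 1178 to 1718 with a median of 1182 in Ctrl replicate 1, so the 22 values are in large part 1 measurement repeated.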

How the data were processed

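RNA of 12 MV3 libraries, 3 per group, was measured as directional poly(A) RNA-seq, per the labels' protocols. The submitters' processing notes name STAR 2.6.1b, HOMER 4.10 and hg38 without their roles, and the sources used here do not give the use of strand in counting. For 70507 RefSeq transcripts the authors deposited expected counts, not normalized, in steps of 0.5 (51.3% of values above 0 were fractional). Columns were matched to libraries by name. The name of 1 column lacks the digit of the cell line and was taken as M0 EV replicate 1. Transcripts were named from RefSeq on GRCh38.p14 (69830) or GENCODE 29 (327), and 350 without a name, holding 0.0608% to 0.0643% of counts, were left out. For each of 28087 genes the transcript with the most counts was kept, rounded to whole counts, since isoforms may share reads.

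The analysis used edgeR 4.0.16 in R 4.3.3, with the default low-count filter (13113 genes, 99.9% of counts), TMM scaling (factors 0.993 to 1.01) and a quasi-likelihood fit with 1 term per group over 12 libraries (residual degrees of freedom 8, coefficient of biological variation 2.59%). The low-count filter ran over all groups, M1 EV included, so a gene low elsewhere could pass it on M1 EV alone. M0 and M2 EV were weighted equally against Ctrl, and p-values were adjusted by Benjamini-Hochberg over all tested genes. On simulated data for this comparison (13044 genes, 50 changed per size) the test recovered 39 genes at 1.25-fold, 46 at 1.5-fold, 49 at 2-fold and 50 at 4-fold, with 12 false among 196 calls. The simulated counts varied independently by gene, without the length trends by library or the deviation of M0 EV replicate 1 seen here. These rates therefore need not hold for the real libraries.

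Genes named are those called in the pooled comparison whose groups did not overlap and whose mean reached 1 CPM, the 5 with the smallest p in a direction with fewer than 5 such genes, a fixed set of 15 inflammatory, invasion and state genes, and up to 4 with the smallest p per list. The fixed set also held the 5 called genes, ESM1 and MT-RNR1. Genes named from a list had the smallest p of that list, so their separation from Ctrl is partly what they were picked for. SLIT2, the gamma protocadherins, CCL2 counts and marker counts are also given. The members, the 27 gene lists (895 genes) and the rules were chosen with earlier results of these data known, so no list's direction is independent support. The alternatives were limma-voom 3.58.1, DESeq2 1.42.0, 2 scalings, 2 filters, fits on 9 libraries, another transcript choice, summing 2 replicates, the replicate block, leaving out each library and, chosen after seeing the data, removing length and GC trends. Lengths were known for 89.8% of tested genes.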

Additional observations from a re-analysis of the deposited data

Results flagged for a closer look

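In 114 named genes the 6 vesicle libraries were searched for a library far from the other 5, which chance gives in about 1 in 20 genes, and 2 were found. CDKN1A, a cell cycle inhibitor, stood at 7.71 CPM in M2 EV replicate 1, against 8.50 to 8.96 CPM in the other 5 vesicle libraries and 6.80 to 7.60 CPM in Ctrl. CSF1, a macrophage growth factor, stood at 25.19 CPM in M2 EV replicate 1, against 27.87 to 29.12 CPM in the other 5 and 24.25 to 27.72 CPM in Ctrl. Both genes were lowest in the same library. Neither was called in the pooled comparison (edgeR adjusted p = 0.686 for CDKN1A and 0.912 for CSF1).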

How the results depend on the processing

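The number of pooled calls (5) was 3 with DESeq2, 10 and 13 with 9 libraries in 2 and 3 groups, 77 with length and GC trends removed (36 higher, 41 lower), 59 with no low-count filter (47 higher, 12 lower) and 0 to 86 when 1 library was left out. For M0 EV against Ctrl the count (2) was 0 with DESeq2, 9 with 9 libraries in 3 groups, 1 with M0 EV replicates 2 and 3 summed, 4 with upper-quartile scaling, 23 with trends removed, 53 with no filter and 0 to 87 with 1 library left out. For M2 EV against Ctrl the count (6) was 2 with DESeq2, 65 with trends removed, 31 with no filter and 0 to 24 with 1 library left out. For M2 EV against M0 EV the count (0) was 3 with trends removed, 12 with no filter and 0 to 36 with 1 library left out. The causes were not tested. M1 EV against the pooled vesicles gave 3127 to 4013 calls with 1 library left out. The mitochondrial difference in share (0.00914 percentage points) was 0.00774 to 0.0113 with 1 library left out. None of the 5 called genes changed direction. Of the other named genes, none of them called, AXL kept its sign in 15 of 21 alternatives (log2 fold change -0.01 to 0.01). IL6, MMP1 and IL15 kept theirs in 20 of 21 each. BMP4 and MX1 were tested in 20 alternatives and kept their sign in all 20. An alternative with mitochondrial messenger RNAs was not run, since the table names only the 2 ribosomal RNAs.

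With the replicate number as a block the calls were 24 in the pooled comparison (18 higher, 6 lower), 20 for M0 EV (18 higher, 2 lower) and 1 for M2 EV against M0 EV. Deviations of same-numbered libraries correlated at -0.045 to 0.027 and those of other-numbered libraries at -0.054 to 0.065. Of 9 libraries, 1 correlated best with its own number in both other groups. These values show no pairing by number. They include the counting noise of all genes, so they cannot tell whether the libraries were paired. Calls rest on 3 Ctrl libraries, and genes below about 10 CPM carry wide intervals.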

Other observations

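In 3 analyses (M0 EV replicate 1 left out, length and GC trends removed, low-count filter left off) the same 34 genes were called, 24 higher and 10 lower with vesicles. They include the 5 genes called in the pooled comparison, and also ESM1, MT-RNR1, DST, SYNE2, MACF1, NQO1, SLIT2, SPARC, CD63 and TP53INP1. Of the 24 higher genes 17 have transcripts over 10000 bases, and of the 10 lower genes 0 do, beside 386 of all 11775 tested genes with a known length. The 3 analyses use mostly the same libraries, and this set was chosen after the values were seen. TFRC, the transferrin receptor that brings iron into cells (log2 fold change 0.12, edgeR adjusted p = 0.0899 in the pooled comparison), and BMF, a pro-apoptotic BCL2 family member (-0.24, 0.0899), were among the 34.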
